A study of Hydra oligactis with 61 samples.

Results

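Foot-regenerating tips of *Hydra oligactis* that had been exposed to alsterpaullone (ALP) were compared at 12 h post amputation (hpa), 9 h after the drug had been washed out, with tips collected at 3 hpa, when the exposure ended. The comparison was defined by the group labels alone. It held 6 of the 61 libraries of the series, 3 at 12 hpa and 3 at 3 hpa, all from the first of 2 batches. Polyps of the strain Innsbruck 12 were starved and cut across the middle of the body column, and the upper piece, which kept its head and had to regrow a foot, was sampled at the wound. ALP tips were kept in 5 µM ALP for the first 3 h after the cut and in medium afterwards, so the 12 hpa group had spent its last 9 h without the drug. The same interval was followed in DMSO tips, cut and handled alike with the solvent in place of the drug (3 libraries at 12 hpa and 3 at 3 hpa, first batch), and DMSO tips taken at 0 hpa (7 libraries, 4 of the first batch and 3 of the second) gave the level at the time of the cut. Each library pooled the tissue next to the wound from 30 animals, and in this species such a pool holds animals that will regrow a foot and animals that will not. The libraries of a group were given as biological replicates, with nothing said of separate cultures. Every p-value below thus measures the spread between pools of a group, which the main fit estimated over all 61 libraries of the series. In such bulk tissue fewer cells of a type and less RNA per cell cannot be told apart.

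ALP inhibits the kinase GSK-3. In the canonical Wnt pathway, GSK-3 works with the scaffold Axin to mark β-catenin for destruction, and a Wnt ligand at its Frizzled receptor stops that, so that β-catenin accumulates and switches on target genes together with TCF factors in the nucleus. The drug therefore acts as an agonist of the pathway below the receptor. Axin genes are themselves targets and serve as a negative feedback. In *Hydra*, β-catenin signalling sets up the oral organiser at the tip of the head, ALP gives the whole body column head properties, and wounding transiently activates stress kinases and immediate early genes such as *fos* at any cut.

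Levels are given as CPM, the TMM-normalised read count scaled to a common library size but not to transcript length, so they compare libraries and not genes. Each library held between 18329583 and 21785502 estimated counts in the ALP groups and between 14550976 and 25165263 in the DMSO groups at 12 and 3 hpa. The test was edgeR's quasi-likelihood test with Benjamini-Hochberg adjustment over the 17676 transcripts tested, the threshold for a call was an adjusted p of 0.01, and fold changes are log2 values ± standard error. Groups that do not overlap were common. All ALP 12 hpa libraries lay above all ALP 3 hpa libraries for 4178 of the 17676 transcripts tested, and below them for 4130. Transcripts carry the study's gene names, or else the name of the protein their sequence matches best in other animals, and the roles given below are those known for these proteins there. A name was at hand for 2566 of the transcripts tested (14.5%), and gene groups could be built only from these, of which 33.4% were called in the ALP comparison, against 23.3% of all transcripts tested.

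Before any result, 1 of the 6 libraries has to be named. ALP 12 hpa library 1 held 94 transcripts that were over 1 CPM and more than 4 times as high as in either of the other ALP 12 hpa libraries. Of these, 79 belonged to the study's head-specific list, read here from its supplementary table as 903 transcripts, and 0 to its foot-specific list. The study's text reports a larger number of head-specific genes, and the reason was not examined. No other library of the ALP and DMSO groups at 12, 3 and 0 hpa held more than 6 such transcripts. The summed level of the head-specific list was 13477, 9889 and 9330 CPM in the ALP 12 hpa libraries and 8184, 8506 and 8592 CPM in the ALP 3 hpa libraries, against 8643 to 9427 CPM in DMSO tips at 12 hpa, 9127 to 9682 CPM in DMSO tips at 3 hpa and 135379 to 148835 CPM in uninjured heads. Library 1 was the highest of the 12 tip libraries, and the other ALP 12 hpa libraries also lay above all ALP 3 hpa libraries. The foot-specific list summed to 2542, 2646 and 2598 CPM in the ALP 12 hpa libraries and to 2055, 2026 and 2040 CPM in the ALP 3 hpa libraries, against 2274 to 2529 CPM in DMSO tips at 12 hpa and 2373 to 2419 CPM in DMSO tips at 3 hpa. Whether library 1 received head tissue or responded more strongly was not tested, and results that rest on it are given with and without it, an alternative chosen after seeing the data.

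**Figure D1:**
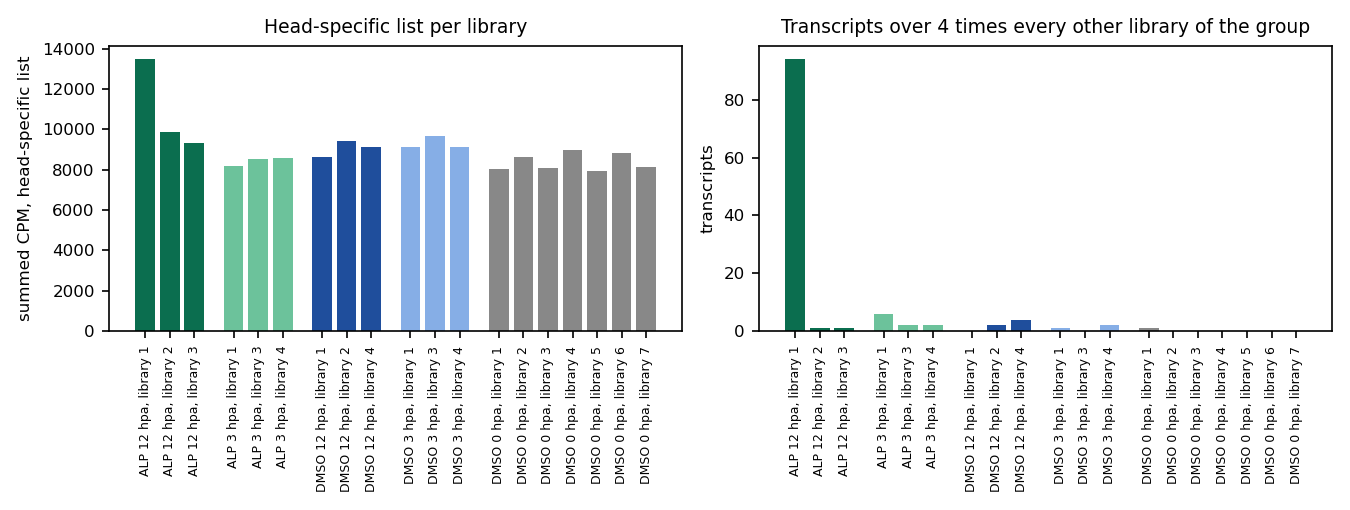
Summed CPM of the head-specific list (left) and number of transcripts over 4 times as high as in every other library of the group (right) for each library, by group. ALP 12 hpa library 1 stands apart on both measures, with 13477 CPM and 94 transcripts.

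Between 3 and 12 hpa the ALP tips changed broadly, and the large changes were mostly increases. At 12 hpa, 2171 transcripts were higher than at 3 hpa (12.3% of those tested) and 1940 were lower (11%), together 23.3%. Changes over 2-fold were less even, with 789 transcripts higher and 100 lower, and over 4-fold 263 were higher and 11 lower. The called increases had a median of 0.77 and the called decreases a median of -0.35, against a median of 0.02 over all transcripts tested. Without library 1 the counts were 1764 higher and 1491 lower, of which 634 and 105 passed 2-fold, and 1674 increases and 1452 decreases were called both with and without it. Outside the head-specific list, 1920 transcripts were higher and 1928 lower in the 12 hpa tips.

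DMSO tips changed less over the same hours, and there the large changes were mostly decreases. In DMSO, 797 transcripts were higher at 12 hpa than at 3 hpa (4.51%) and 588 were lower (3.33%), together 7.84%. Over 2-fold, 80 were higher and 198 lower. The count of increases was 393 without DMSO 3 hpa library 1 (395 lower), 420 without DMSO 12 hpa library 2 (401 lower) and 518 without DMSO 3 hpa library 4 (445 lower). The comparisons shared no library, and 266 transcripts were higher at 12 hpa in both, which is 12.3% of the ALP increases and 33.4% of the DMSO increases. A further 163 were lower in both (8.4% of the ALP and 27.7% of the DMSO decreases), 94 were lower in ALP and higher in DMSO (4.85% and 11.8%), and 50 were higher in ALP and lower in DMSO (2.3% and 8.5%). Tested directly, the change over time differed between ALP and DMSO tips for 2359 transcripts (13.3%), in the positive direction for 1123 (6.35%) and in the negative direction for 1236 (6.99%). Without library 1 these were 967 and 896.

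**Figure D2:**
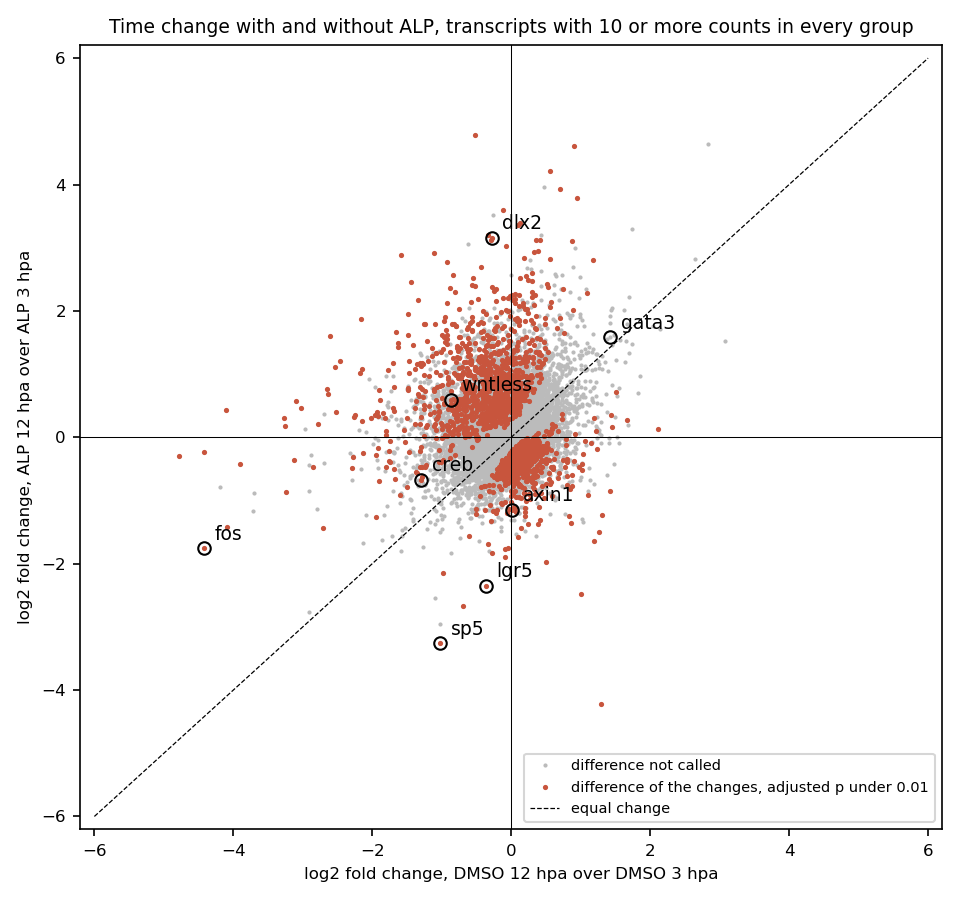
Log2 fold change from 3 to 12 hpa in ALP tips (y axis) against that in DMSO tips (x axis) for the 16451 transcripts with at least 10 counts in every group; red points mark the 2301 whose change differed between ALP and DMSO tips, and the dashed line marks equal change. *axin1*, *sp5* and *lgr5* lie below the line, and *fos*, *creb*, *dlx2* and *wntless* lie above it.

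The gap between ALP and DMSO tips was narrower at 12 hpa than at 3 hpa by count of transcripts. With the drug just removed, ALP tips had 1099 transcripts higher (6.22%) and 1222 lower (6.91%) than DMSO tips, together 13.1%, and 443 of the decreases but 17 of the increases passed 2-fold. After washout, 409 were higher (2.31%) and 299 lower (1.69%), together 4.01%, of which 166 and 42 passed 2-fold. The 12 hpa counts were 208 higher and 156 lower without ALP 12 hpa library 1, and they also moved by over 1.5 times without DMSO 12 hpa library 2 (224 and 135), without DMSO 12 hpa library 4 (246 higher) and without ALP 12 hpa library 2 or 3 (176 and 177 lower). Set against DMSO tips at 0 hpa, ALP tips at 12 hpa had 1302 transcripts higher (7.37%) and 1203 lower (6.81%), together 14.2%, and the decreases numbered 731 without ALP 12 hpa library 1 and 750 without library 2.

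Wnt genes moved in both directions after washout, with *axin1*, *sp5*, *tcf*, *tle3* and *lgr5* among those that fell and *wntless*, *wnt3* and *sFRP* those that rose. Of the 12 Wnt genes named by the study, 3 were called higher and 6 lower at 12 hpa in ALP tips (75%, against 23.3% of all transcripts tested). The same numbers were called without library 1. In DMSO tips 0 were higher and 2 lower over the same hours. The study picked these genes with these libraries among others, so their directions are a description.

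*axin1* (R031348c0g1_i01), which codes for the scaffold named above, showed the clearest return. Its level was 30.4, 28.9 and 28.7 CPM in the ALP 12 hpa libraries, against 61.9, 66.7 and 66.3 CPM in the ALP 3 hpa libraries. The groups did not overlap, and the fall was 2.22-fold (log2 -1.15 ± 0.09, adjusted p = 3.54e-15). DMSO tips held 30.0, 30.1 and 30.6 CPM at 12 hpa and 28.1, 30.7 and 30.6 CPM at 3 hpa, a change of 0.02 (adjusted p = 0.936), and DMSO tips at 0 hpa ranged from 23.2 to 30.6 CPM. ALP tips at 12 hpa thus lay within or just outside the DMSO ranges, and the 12 hpa difference between ALP and DMSO tips was -0.04 ± 0.09 (adjusted p = 0.826).

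*sp5* (R029443c0g1_i01), a zinc-finger factor that Wnt signalling induces and that represses *wnt3* in *Hydra*, fell past its control level. Its libraries read 24.6, 15.8 and 17.2 CPM in ALP tips at 12 hpa, against 177.1, 188.2 and 184.1 CPM in ALP tips at 3 hpa. In DMSO tips it was 69.4, 62.4 and 39.4 CPM at 12 hpa, against 129.0, 94.1 and 127.4 CPM at 3 hpa, and DMSO tips at 0 hpa ranged from 58.8 to 74.2 CPM. Thus *sp5* was the highest in ALP tips at 3 hpa and the lowest in ALP tips at 12 hpa, with no overlap between any of the groups at 12 and 3 hpa. The change was -3.25 ± 0.15 in ALP tips (9.54-fold lower, adjusted p = 6.45e-23) and -1.02 in DMSO tips (adjusted p = 1.76e-07), and these changes differed by -2.23 ± 0.20 (adjusted p = 6.42e-12). At 12 hpa ALP tips were below DMSO tips by -1.58 on the log2 scale (adjusted p = 3.05e-11) and below DMSO tips at 0 hpa by -1.74 (adjusted p = 1.46e-14).

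The transcriptional partner and co-repressor of β-catenin moved the same way by smaller amounts. *tcf* (R035844c0g2_i01) was 81.8, 73.5 and 81.4 CPM in ALP tips at 12 hpa, against 116.1, 118.3 and 122.0 CPM at 3 hpa (-0.59 ± 0.08, adjusted p = 2.54e-08), while DMSO tips held 65.0 to 67.1 CPM at 12 hpa and 60.2 to 69.8 CPM at 3 hpa. Its change differed from that in DMSO tips by -0.62 ± 0.11 (adjusted p = 3.16e-05), and ALP tips at 12 hpa still lay above every DMSO library. *tle3* (R040370c0g1_i01), a Groucho-type co-repressor, fell by 0.32 on the log2 scale (adjusted p = 1.15e-05), but its change was not shown to differ from that in DMSO tips (-0.20, adjusted p = 0.0729). *lgr5* (R026305c0g1_i01), the receptor for R-spondin Wnt enhancers in vertebrates, was 0.979, 0.843 and 1.33 CPM in ALP tips at 12 hpa, against 3.12, 6.49 and 6.47 CPM at 3 hpa (-2.35 ± 0.31, adjusted p = 3.27e-08), and the difference from the DMSO change was -1.99 ± 0.43 (adjusted p = 5.74e-04). All of these were lower in each ALP 12 hpa library than in each ALP 3 hpa library, as were 4130 of the 17676 transcripts tested.

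**Figure D3:**
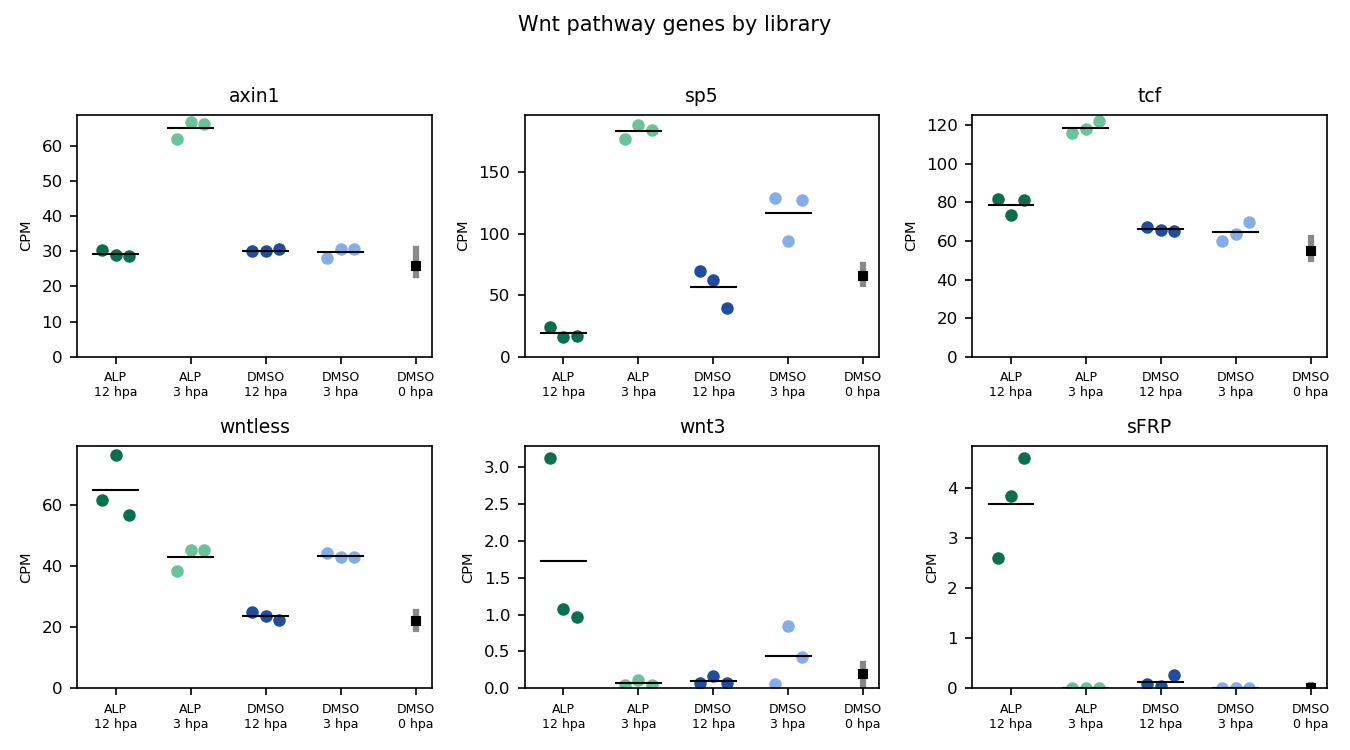
CPM of *axin1*, *sp5*, *tcf*, *wntless*, *wnt3* and *sFRP* in each library of ALP tips at 12 and 3 hpa and DMSO tips at 12 and 3 hpa; lines are group means, the square is the median of the 7 DMSO 0 hpa libraries and the grey bar their range. *axin1*, *sp5* and *tcf* are highest in ALP tips at 3 hpa, whereas *wntless*, *wnt3* and *sFRP* are highest in ALP tips at 12 hpa.

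Upstream of the receptor the order was the other way round. *wntless* (R038745c0g1_i02), which carries Wnt ligands to the cell surface, was 61.8, 76.6 and 56.8 CPM in ALP tips at 12 hpa, against 38.5, 45.4 and 45.2 CPM at 3 hpa. DMSO tips had 24.9, 23.8 and 22.3 CPM at 12 hpa, against 44.5, 42.9 and 43.2 CPM at 3 hpa. The groups of each treatment did not overlap, and the directions were opposite: 0.60 ± 0.10 in ALP tips (adjusted p = 4.68e-06) and -0.87 in DMSO tips (adjusted p = 1.18e-08), a difference of 1.47 ± 0.15 (adjusted p = 9.88e-11).

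*wnt3* (R033453c0g1_i01), the ligand of the head organiser in *Hydra*, was low in every group at 12 and 3 hpa and highest in ALP tips at 12 hpa. It reached 3.13, 1.08 and 0.971 CPM there, against 0.0472, 0.109 and 0.0469 CPM in ALP tips at 3 hpa. The rise was 4.58 ± 0.65 with library 1 (adjusted p = 2.56e-07) and 3.84 without it (adjusted p = 2.95e-05). DMSO tips held 0.0778, 0.163 and 0.0685 CPM at 12 hpa, against 0.0628, 0.85 and 0.421 CPM at 3 hpa, so the DMSO groups overlapped. The DMSO 3 hpa library at 0.85 CPM came near the lower ALP 12 hpa libraries. The difference between the changes was 6.60 ± 1.08 (adjusted p = 9.31e-06). Other ligands named by the study were not called: *wnt7* (R026000c0g1_i01) was 1.81, 0.187 and 0.0511 CPM at 12 hpa, against 0.0472, 0 and 0.282 CPM at 3 hpa, and *wnt9/10c* (R035762c0g1_i01) was 1.37, 0 and 0.204 CPM, against 0.661, 0.327 and 0.375 CPM. In both, library 1 was the only one to stand out. A transcript matching Wnt-4 (R029068c0g1_i01) was 0.979, 0.187 and 0.511 CPM at 12 hpa and held a single count at 3 hpa (0, 0.0546 and 0 CPM, adjusted p = 3.74e-05).

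A transcript matching a secreted Wnt antagonist was higher in ALP tips after washout. *sFRP* (R035800c0g3_i01), which matches secreted Frizzled-related proteins that bind Wnt ligands outside the cell, was 2.59, 3.84 and 4.6 CPM in ALP tips at 12 hpa, against 0 in all 3 ALP 3 hpa libraries. Measured against a floor of 3 counts over the ALP 3 hpa group, its mean was at least 74.6-fold higher and its lowest library at least 52.6-fold higher (adjusted p = 4.54e-12). DMSO tips held 0.0778, 0.0408 and 0.274 CPM at 12 hpa and 0 at 3 hpa, so the 12 hpa groups did not overlap either (adjusted p = 1.23e-09 for ALP against DMSO tips). The difference between the changes in ALP and DMSO tips was not called, with both treatments at 0 at 3 hpa. A second transcript of the same assembly component, matching Netrin-3 (R035800c0g5_i01), read 2.74, 5.29 and 6.44 CPM at 12 hpa and a single count at 3 hpa (adjusted p = 1.53e-12), and reads could have been divided between these transcripts. Both were lowest in library 1 among the ALP 12 hpa libraries.

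Among 14 other transcripts matching Wnt pathway proteins, 5 were called higher and 1 lower at 12 hpa in ALP tips (42.9%, against 23.3% of all transcripts tested, median 0.56). Without library 1, 3 and 0 were called (21.4%, against 18.2% of all transcripts, median 0.17). Frizzled-5 (R032123c0g1_i01), a Wnt receptor, was 28.8, 23.9 and 25.5 CPM in ALP tips at 12 hpa, against 11.9, 12.7 and 14.9 CPM at 3 hpa (0.99 ± 0.11, adjusted p = 5.65e-10). It rose likewise in DMSO tips (0.79, adjusted p = 2.47e-07), and the changes were not shown to differ (0.20 ± 0.16, adjusted p = 0.39). *brachyury1* (R035976c0g2_i01), a T-box factor of the *Hydra* head, was 9.59, 7.31 and 6.08 CPM at 12 hpa and 8.31, 7.8 and 8.4 CPM at 3 hpa in ALP tips (adjusted p = 0.739), with overlapping groups.

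The 6 transcription factors and regulators that the study placed in its ALP module were all lower in ALP tips at 12 hpa than at 3 hpa, with a median of -0.36 (the module was defined on these samples, so this is no independent evidence). Besides *tle3* these were *rfx1* (R039495c1g1_i04; 194.7, 169.4 and 171.6 CPM, against 249.3, 241.4 and 258.4 CPM; -0.48 ± 0.08, adjusted p = 1.04e-06), *aatf* (R038486c1g1_i01; -0.42, adjusted p = 3.02e-08), *dmrta2* (R023528c0g1_i01; -0.39, adjusted p = 0.0012), *foxl1* (R005786c0g1_i02; -0.33, adjusted p = 0.00519) and *ywhaz* (R035432c1g1_i02; -0.21, adjusted p = 4.79e-05). In DMSO tips 0 of the 6 were called in either direction. The direct test called a difference for *rfx1* (-0.42), *aatf* (-0.29), *dmrta2* (-0.47) and *ywhaz* (-0.28). With each of the 12 libraries left out in turn, this difference lost its call 11 times for *dmrta2*, 8 times for *aatf*, 5 times for *rfx1* and 0 times for *ywhaz*. Without library 1 it was lost for *aatf* (adjusted p = 0.0118) and *dmrta2* (0.0119). The change of *foxl1* in ALP tips was no longer called without library 1 (adjusted p = 0.0608) or 3 others of the ALP libraries. That of *dmrta2* was lost without 3 of them.

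Transcripts raised by the injury in DMSO tips moved in both directions over these hours in ALP tips. In DMSO tips, 1060 transcripts were higher at 3 hpa than at 0 hpa (6%) and 946 were lower (5.35%), together 11.3%. Of the 1060, ALP tips at 12 hpa had 311 lower (29.3%) and 180 higher (17%) than ALP tips at 3 hpa, against 11% and 12.3% of all transcripts tested. Of the 946, 264 were higher (27.9%) and 59 lower (6.24%). Among the 297 that had passed 2-fold at 3 hpa in DMSO tips, 67 were higher and 43 lower in ALP tips at 12 hpa, with a median of 0.25. These sets were picked on the DMSO 3 hpa libraries, where the DMSO change over time also starts. A fall in DMSO tips would be partly built in and is not given for them.

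The bZIP factors, which include the immediate early genes, gave 1 higher and 5 lower of 10 in ALP tips and also 1 higher and 5 lower in DMSO tips. In each treatment 60% were called, against 23.3% of all transcripts tested in ALP tips and 7.84% in DMSO tips. The median over all 10 members, called or not, was -0.21 in ALP tips and -0.96 in DMSO tips. *fos* (R029832c0g1_i01), an AP-1 subunit, was 34.9, 24.6 and 27.8 CPM in ALP tips at 12 hpa, against 87.9, 95.7 and 110.9 CPM at 3 hpa (-1.76 ± 0.25, adjusted p = 2.61e-07). DMSO tips held 8.87, 11.5 and 11.2 CPM at 12 hpa, against 226.7, 228.5 and 217.5 CPM at 3 hpa (-4.43, adjusted p = 2.39e-17), and DMSO tips at 0 hpa ranged from 0.789 to 2.29 CPM. ALP tips therefore started lower and ended higher than DMSO tips, with no overlap at either time, and the changes differed by 2.67 ± 0.38 (adjusted p = 4.06e-07).

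Other factors of the group repeated this in part. Transcription factor AP-1 (R037979c0g1_i01) was 71.7, 74.1 and 75.9 CPM in ALP tips at 12 hpa, against 116.2, 119.5 and 115.8 CPM at 3 hpa (-0.66 ± 0.07, adjusted p = 3.77e-10), and DMSO tips held 53.4 to 64.8 CPM at 12 hpa, against 171.9 to 208.1 CPM at 3 hpa (difference of the changes 1.01 ± 0.10, adjusted p = 2.14e-10). *creb* (R027355c0g1_i03), a factor activated by cAMP and stress kinases, was 15, 13.6 and 14 CPM in ALP tips at 12 hpa, against 21.8, 24.6 and 21.7 CPM at 3 hpa. It reached the same level in DMSO tips at 12 hpa (14.1 to 14.9 CPM) after a higher one at 3 hpa (33.9 to 37.8 CPM), and the changes differed by 0.62 ± 0.14 (adjusted p = 7.31e-04). CCAAT/enhancer-binding protein beta (R022890c0g1_i01), which is induced by injury and inflammation in mammals, fell alike in both (-0.82 ± 0.10 in ALP tips, difference -0.15, adjusted p = 0.49). *jun* (R013156c0g1_i01), the partner of Fos in AP-1, was the member that rose: 69.9, 82.0 and 84.7 CPM in ALP tips at 12 hpa, against 49.1, 56.0 and 55.6 CPM at 3 hpa (0.56 ± 0.07, adjusted p = 9.54e-09), while DMSO tips held 80.0 to 84.1 CPM, against 63 to 69.5 CPM.

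**Figure D4:**
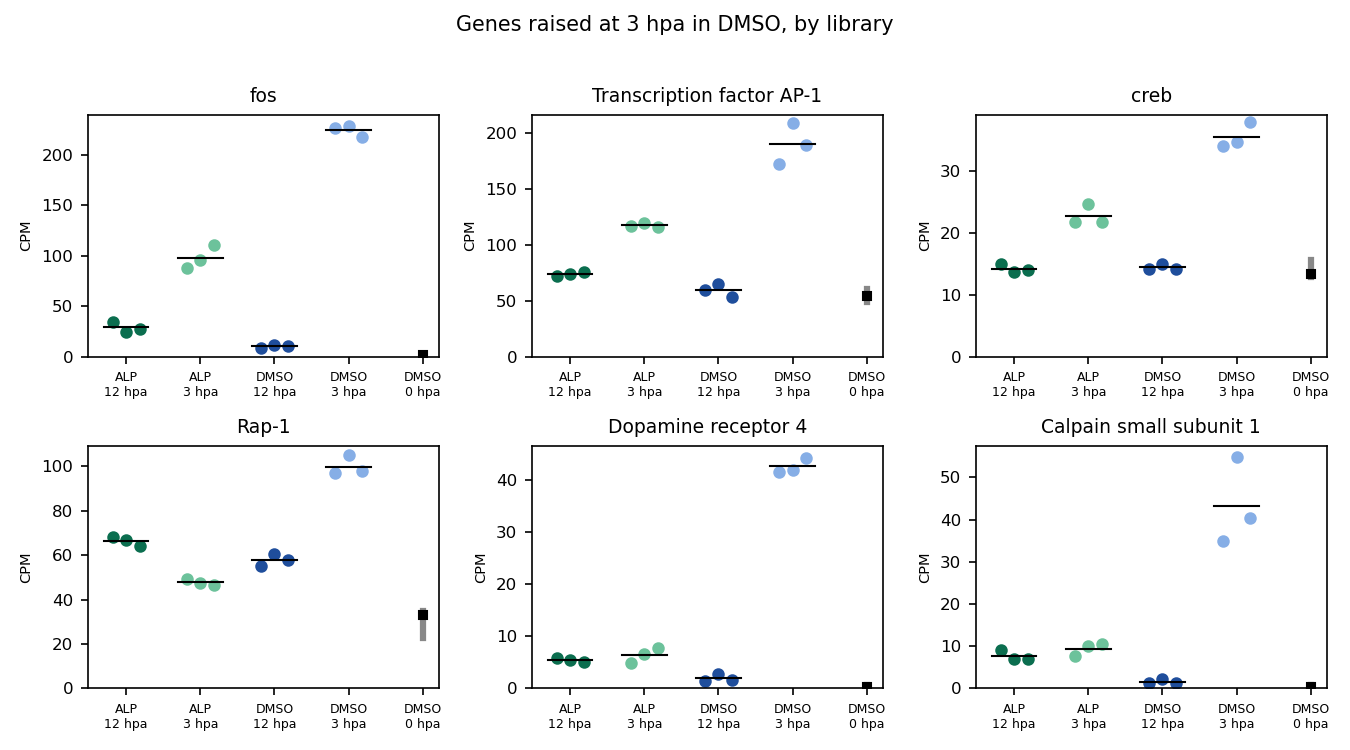
CPM of *fos*, Transcription factor AP-1, *creb*, Rap-1, Dopamine receptor 4 and Calpain small subunit 1 in each library, with the groups, means and DMSO 0 hpa range drawn as in the plot of Wnt genes. In DMSO tips all 6 are higher at 3 hpa than at 12 hpa, whereas in ALP tips the levels at 12 and 3 hpa lie closer together.

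Small GTPases of the Ras family, which pass receptor signals to kinase cascades, separated ALP and DMSO tips most clearly among the signalling groups listed. These groups were chosen with earlier results of these data known, so the ranking is a description. All 10 measured members were lower at 12 hpa than at 3 hpa in DMSO tips (median -0.92), against 3.33% of all transcripts tested. ALP tips had 1 higher and 1 lower with 8 not called (median 0.11). The change differed for 8 of the 10, all in the positive direction, and for 7 without library 1. Of all transcripts tested, 13.3% differed, 6.35% in the positive direction. Their summed level was 157.8 to 165.1 CPM in ALP tips at 12 hpa and 150.7 to 154.8 CPM in ALP tips at 3 hpa, against 117.7 to 132.0 CPM in DMSO tips at 12 hpa and 268.2 to 287.8 CPM in DMSO tips at 3 hpa. DMSO tips at 0 hpa summed to 71.9 to 103.1 CPM, below all of these. Rap-1 (R032755c1g1_i01), which controls cell adhesion, was 68.3, 66.7 and 64.0 CPM in ALP tips at 12 hpa, against 49.3, 47.5 and 46.4 CPM at 3 hpa (0.47 ± 0.13, adjusted p = 0.00378, and 0.0148 without library 1; the call was also lost without 3 others of the ALP libraries). In DMSO tips it was 55.3, 60.7 and 57.8 CPM at 12 hpa, against 97.0, 105.1 and 97.8 CPM at 3 hpa, and the changes differed by 1.26 ± 0.18 (adjusted p = 1.06e-06). Ras-like protein family member 12 (R025879c0g1_i01) was the member that fell in ALP tips (-0.83 ± 0.17, adjusted p = 1.36e-04), by an amount not shown to differ from that in DMSO tips (adjusted p = 0.8).

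In the MAP kinase pathway 3 of 10 members were higher and 3 lower in ALP tips at 12 hpa (60% called, against 23.3% of all transcripts tested). In DMSO tips 0 were higher and 3 lower (30%, against 7.84%). Mitogen-activated protein kinase 6 (R023284c0g1_i01), an atypical MAP kinase, was 13.5, 14.3 and 14.2 CPM in ALP tips at 12 hpa, against 5.67, 6.82 and 7.04 CPM at 3 hpa (1.10 ± 0.12, adjusted p = 1.51e-10). DMSO tips overlapped at 10.7 to 13.5 CPM and 11.2 to 15.1 CPM, so the low group was the ALP 3 hpa one (difference 1.24 ± 0.16, adjusted p = 8.49e-08). A MAP kinase kinase (R029930c0g1_i01) rose by 0.63 ± 0.08 in ALP tips (adjusted p = 2.39e-08) and Kinase suppressor of Ras 2 (R031760c0g1_i01), a scaffold of the cascade, fell by 0.97 on the log2 scale (adjusted p = 4.15e-09). Their changes were not called different from those in DMSO tips (adjusted p = 0.0106 and 0.011). The dual specificity phosphatase R028789c0g1_i03, of a class that switches MAP kinases off and chosen here after its values were seen, was 32.1, 31.2 and 29.3 CPM in ALP tips at 12 hpa, against 21.6, 24.5 and 24.4 CPM at 3 hpa, and 21.0 to 24.3 CPM in DMSO tips at 12 hpa, against 47.9 to 50.9 CPM at 3 hpa (a 2.84-fold difference between the changes, adjusted p = 9.88e-11).

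Among the transcripts with the largest positive differences between the changes, 2 were low at 0 hpa, high in DMSO tips at 3 hpa and intermediate in ALP tips at both times. Dopamine receptor 4 (R030089c1g1_i01), a receptor coupled to G proteins, was 5.77, 5.48 and 5.11 CPM in ALP tips at 12 hpa and 4.87, 6.55 and 7.79 CPM at 3 hpa, which overlapped (-0.23 ± 0.28, adjusted p = 0.567). In DMSO tips it was 1.48, 2.81 and 1.58 CPM at 12 hpa, against 41.5, 42.0 and 44.3 CPM at 3 hpa, and DMSO tips at 0 hpa ranged from 0.0643 to 0.576 CPM. Calpain small subunit 1 (R029533c1g1_i01), the regulatory part of a calcium-dependent protease, was 9.05, 6.84 and 7.05 CPM in ALP tips at 12 hpa and 7.56, 9.99 and 10.6 CPM at 3 hpa, while DMSO tips held 1.21, 2.2 and 1.16 CPM at 12 hpa, against 34.9, 54.7 and 40.3 CPM at 3 hpa. Neither changed detectably in ALP tips over the interval, and the differences were 4.19 ± 0.41 (adjusted p = 6.10e-11) and 4.50 ± 0.52 (adjusted p = 3.73e-09). EGLN1 (R012051c0g1_i01), an oxygen-sensing prolyl hydroxylase, differed from them. It was 3.18, 3.47 and 2.35 CPM in ALP tips at 12 hpa, against 0.236, 0.327 and 0.61 CPM at 3 hpa (2.91 ± 0.44, adjusted p = 5.81e-07), while DMSO tips stayed below the 3.05 to 5.08 CPM of 0 hpa at both times (0.754 to 1.06 CPM at 12 hpa, against 1.44 to 2.46 CPM at 3 hpa).

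Other transcripts that were high at 3 hpa fell alike in both treatments. COUP transcription factor 2 (R030611c0g1_i01), a nuclear receptor, was 1.22, 0.89 and 1.18 CPM in ALP tips at 12 hpa, against 4.44, 9.39 and 8.73 CPM at 3 hpa (-2.77 ± 0.36), and it fell in DMSO tips by a like amount (-2.90, difference 0.13). Steroid 17-alpha-hydroxylase/17,20 lyase (R008134c0g1_i01), a steroid-synthesis enzyme in vertebrates, was 14.2, 10.3 and 14.0 CPM in ALP tips at 12 hpa, against 35.3, 38.9 and 44.6 CPM at 3 hpa (-1.63 ± 0.15), and changed by -1.85 in DMSO tips. Both were called lower in both treatments.

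Genes of foot identity did not move together. Of the 16 foot genes named by the study, 4 were called higher and 2 lower in ALP tips at 12 hpa, with 10 not called (median 0.58, or 0.22 with the transcripts at 0 in ALP tips at 3 hpa set to their floor). The 37.5% called stood against 23.3% of all transcripts tested. *dlx2* (R029042c0g1_i02), a homeobox factor, was 10.4, 15.5 and 16.3 CPM in ALP tips at 12 hpa, against 1.04, 1.91 and 1.78 CPM at 3 hpa (3.16 ± 0.28, 8.94-fold higher, adjusted p = 4.57e-13). DMSO tips overlapped at 3.97 to 5.76 CPM at 12 hpa and 5.53 to 6.66 CPM at 3 hpa, and the changes differed by 3.44 ± 0.38 (adjusted p = 1.60e-09). ALP tips lay below DMSO tips at 3 hpa (-1.92) and above them at 12 hpa (1.52).

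*gata3* (R023611c0g1_i01), a zinc-finger factor, rose in both treatments. It was 7.98, 6.75 and 9.25 CPM in ALP tips at 12 hpa, against 2.08, 2.73 and 3.14 CPM at 3 hpa (1.59 ± 0.19, adjusted p = 1.59e-09), and 12.9, 12.1 and 13.1 CPM in DMSO tips at 12 hpa, against 4.27, 4.36 and 5.53 CPM at 3 hpa (1.43, adjusted p = 1.79e-09). The changes were not shown to differ (0.16 ± 0.25, adjusted p = 0.697), and ALP tips were below DMSO tips at both times. *nk2* (R037127c0g1_i01), a homeobox gene known from the *Hydra* foot, was 2.35, 2.16 and 2.91 CPM in ALP tips at 12 hpa, against 3.78, 4.37 and 4.74 CPM at 3 hpa (-0.80 ± 0.20, adjusted p = 0.00165, and 0.0102 without library 1), and its change differed from that in DMSO tips by -0.98 ± 0.28 (adjusted p = 0.0082). This difference lost its call in 9 of the 12 cases with a library left out (adjusted p 0.015 to 0.0295, and 0.0234 without ALP 12 hpa library 1). *dlx1* (R035295c0g1_i01) did not pass in ALP tips (37.1 to 38.7 CPM, against 32.5 to 38.0 CPM, adjusted p = 0.4) but rose in DMSO tips (49.2 to 54.2 CPM, against 33 to 38.3 CPM), with a difference of -0.45 (adjusted p = 0.00203, lost in 3 of the 12 cases).

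The remaining called foot genes were low. *tld* (R035649c0g1_i01), a Tolloid-like protease, was 2.06, 4.87 and 4.09 CPM in ALP tips at 12 hpa, against 0.945, 0.491 and 1.64 CPM at 3 hpa (1.80 ± 0.41, adjusted p = 5.17e-04, and 0.0106 without ALP 12 hpa library 2). *kiaa1958* (R023095c0g1_i01) was 0.44, 2.25 and 1.33 CPM at 12 hpa with a single count at 3 hpa (adjusted p = 2.86e-05), and *dll1* (R017255c0g1_i02) was 4.21, 2.9 and 2.61 CPM, against 5.05, 5.02 and 6.85 CPM (-0.80 ± 0.22, adjusted p = 0.0041). The call of *dll1* was lost without ALP 3 hpa library 4 (0.0501) or ALP 12 hpa library 2 (0.027) or 3 (0.0381). *fd4* (R032408c0g1_i01), *npyr4* (R014795c0g1_i01) and *opn4a* (R028454c0g1_i03) were not called (adjusted p = 0.0298, 0.419 and 0.0104). Across the whole foot-specific list of 403 tested transcripts, 42 were higher and 10 lower (12.9% called), below the 23.3% of all transcripts, with a median of 0.00, or 0.12 with the 101 transcripts at 0 in ALP tips at 3 hpa set to their floor. In DMSO tips 8 were higher and 23 lower, and the direct test called 20 positive and 5 negative differences. Leaving out any 1 of the 6 ALP libraries gave 28 to 36 higher and 7 to 12 lower, with 28 and 7 without library 1.

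Peroxidase activity marks the basal disc of *Hydra*, and 1 of 6 transcripts matching an ascorbate peroxidase carried nearly all the signal of that group. It (R038155c0g1_i01) was 359.3, 519.0 and 369.7 CPM in ALP tips at 12 hpa, against 37.9, 47.8 and 58.1 CPM at 3 hpa (3.12 ± 0.24, adjusted p = 5.81e-15). DMSO tips held 236.7, 226.4 and 221.7 CPM at 12 hpa and 200, 145.3 and 167.2 CPM at 3 hpa, and DMSO tips at 0 hpa ranged from 199.4 to 302.1 CPM. The ALP 3 hpa libraries were thus below every other group and the ALP 12 hpa libraries above every other group, and the changes differed by 2.70 ± 0.32 (adjusted p = 7.89e-09). This transcript is not in the foot-specific list. Of the other 5, 3 were at 0 in all ALP 3 hpa libraries and none was called.

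The head-specific list depended most on library 1. Of the 902 tested transcripts of the head-specific list, 251 were higher and 12 lower in ALP tips at 12 hpa (29.2% called, against 23.3% of all transcripts tested, median 0.58). Without library 1, 128 were higher and 19 lower (16.3% called, against 18.2% of all transcripts, median 0.30), whereas leaving out any of the other 5 libraries gave 187 to 280 higher. In DMSO tips 15 were higher and 26 lower, and the direct test called 138 positive and 5 negative differences, or 91 and 8 without library 1. *zic4* (R028263c0g1_i01), which maintains tentacle identity in *Hydra*, was 5.68, 4.22 and 1.79 CPM in ALP tips at 12 hpa, against 0.52, 1.42 and 1.13 CPM at 3 hpa (1.96 ± 0.38, adjusted p = 5.28e-05; 1.60 and 0.00282 without library 1). DMSO tips held 0.739, 0.448 and 0.206 CPM at 12 hpa, against 1.38, 1.02 and 1.92 CPM at 3 hpa, and the changes differed by 3.45 ± 0.68 (adjusted p = 1.52e-04).

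A pair of receptors for fibroblast growth factors was higher in ALP tips at 12 hpa. A fibroblast growth factor receptor (R033445c0g1_i01) was 71.9, 93.7 and 99.4 CPM in ALP tips at 12 hpa, against 19.7, 18.6 and 17.5 CPM at 3 hpa (2.25 ± 0.12, 4.74-fold higher, adjusted p = 1.21e-20). DMSO tips overlapped at 37.4, 39.3 and 45.5 CPM at 12 hpa and 32.7, 25.2 and 38.5 CPM at 3 hpa, and the changes differed by 1.91 ± 0.17 (adjusted p = 4.46e-12). Another receptor, matching Fibroblast growth factor receptor 3 (R037379c0g1_i03), was 79.0, 83.8 and 85.7 CPM, against 46.5, 51.8 and 51.8 CPM in ALP tips (0.73 ± 0.06, adjusted p = 3.55e-13), and its rise was like that in DMSO tips (0.70, difference 0.03, adjusted p = 0.877). Of 20 FGF ligands and receptors, 3 were higher and 1 lower with 16 not called, and 2 and 0 were called without library 1. The 20% called lay below the 23.3% of all transcripts tested. The called ligand, matching Fibroblast growth factor 9 (R018518c0g1_i01), stood at 0.538, 0.141 and 0.153 CPM at 12 hpa and at 0 in all 3 ALP 3 hpa libraries (adjusted p = 6.58e-04, and 0.0146 without library 1).

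In the TGF-beta and BMP pathway 2 of 10 members were called (20%, against 23.3% of all transcripts tested). Both were lower in ALP tips at 12 hpa, while the median of the list was 0.16. Growth/differentiation factor 8 (R001669c0g1_i01), a TGF-beta ligand, was 3.96, 2.53 and 3.42 CPM in ALP tips at 12 hpa, against 14.6, 11.8 and 12.4 CPM at 3 hpa (-1.97 ± 0.23, adjusted p = 1.32e-09). DMSO tips at 12 hpa (10.7 to 18.7 CPM) and 3 hpa (8.05 to 11.9 CPM) and DMSO tips at 0 hpa (9.14 to 16.4 CPM) all lay above the ALP 12 hpa libraries, and the changes differed by -2.47 ± 0.31 (adjusted p = 2.07e-08). Chordin (R034952c0g1_i02), a BMP antagonist, fell by 0.59 on the log2 scale in ALP tips (adjusted p = 6.25e-04, and 0.0175 and 0.0122 without ALP 12 hpa library 2 or 3) and alike in DMSO tips (difference 0.11, adjusted p = 0.727).

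Of the transcription factors with large falls, AP-2-beta left a level that the other tips shared. Transcription factor AP-2-beta (R018333c0g2_i01) was 10, 7.31 and 9.91 CPM in ALP tips at 12 hpa, against 32.1, 37.3 and 32.4 CPM at 3 hpa (-1.90 ± 0.14, adjusted p = 4.42e-16), while DMSO tips held 26.2 to 27.5 CPM at 12 hpa, 28.4 to 29.1 CPM at 3 hpa and 30.0 to 40.6 CPM at 0 hpa. Homeobox protein vab-15 (R007809c0g1_i02), an Msx-type factor, was 5.48, 6.0 and 6.18 CPM in ALP tips at 12 hpa, against 8.22, 9.82 and 12.2 CPM at 3 hpa, and moved the other way in DMSO tips (11.6 to 13.8 CPM, against 6.18 to 8.36 CPM; difference -1.65 ± 0.23, adjusted p = 2.78e-07). Transcription factor HES-2 (R023360c0g1_i04), of a family that Notch signalling induces, was 1.76, 1.08 and 1.18 CPM, against 2.88, 2.62 and 1.97 CPM in ALP tips (-0.89 ± 0.23, adjusted p = 0.00202). The call was lost without ALP 3 hpa library 1 (0.0258) or ALP 12 hpa library 2 (0.0238) or 3 (0.0155). HES-2 was the only called member among 3 Notch-related transcripts. A Doublesex- and mab-3-related factor (R004400c0g1_i01), a DNA-binding protein of sexual differentiation in other animals, was 1.42, 0.609 and 0.766 CPM in ALP tips at 12 hpa, against 8.27, 8.08 and 5.35 CPM at 3 hpa (-2.95 ± 0.34). DMSO tips held 0.817, 0.611 and 0.617 CPM at 12 hpa, against 0.817, 2.04 and 1.32 CPM at 3 hpa. The difference between the changes was not called (adjusted p = 0.0132).

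Basement membrane collagens rose in both treatments. Of 21 matrix proteins and receptors, 11 were higher, 0 lower and 10 not called in ALP tips at 12 hpa (median 0.31). The 52.4% called stood against 23.3% of all transcripts tested, and 8 were higher without library 1. In DMSO tips 7 were higher and 0 lower (33.3%, against 7.84%). Type IV collagen, which forms the network of the basement membrane, led the group. Collagen alpha-1(IV) (R035580c0g1_i01) was 470.5, 474.9 and 507.6 CPM in ALP tips at 12 hpa, against 189.8, 223.1 and 238.5 CPM at 3 hpa (1.16 ± 0.10, adjusted p = 2.56e-13), Collagen alpha-2(IV) (R039304c0g1_i01) changed by 1.33 ± 0.12 (adjusted p = 3.90e-13) and a further alpha-1(IV) transcript (R037037c0g1_i05) by 1.07 ± 0.11 (adjusted p = 2.37e-11). In DMSO tips their changes were 0.69, 1.07 and 1.09, and none of the 3 differences was called (adjusted p = 0.0103, 0.262 and 0.95). The fibrillar-type chains matching Collagen alpha-2(I) (R040256c0g1_i02) and alpha-1(II) (R040753c0g1_i01), named after their values were seen, were not called in ALP tips (0.08 and 0.15).

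Secreted metalloproteinases, which cut matrix and signalling proteins, were counted in a list that also holds Metalloproteinase inhibitor 3. Of its 35 members, 15 were higher and 2 lower in ALP tips at 12 hpa (48.6% called, against 23.3% of all transcripts tested, median 0.31). Without library 1 these were 10 and 3 (37.1%, against 18.2% of all transcripts). The inhibitor was 1 of the 2 lower members. In DMSO tips 3 members were higher and 2 lower. Zinc metalloproteinase nas-8 (R034130c1g1_i04) was 51.6, 39.6 and 16.8 CPM in ALP tips at 12 hpa, against 5.9, 9.01 and 6.38 CPM at 3 hpa (2.35 ± 0.25, adjusted p = 1.95e-10; 2.01 without library 1). DMSO tips held 9.18 to 10.7 CPM at 12 hpa, against 12.8 to 24.8 CPM at 3 hpa, and the changes differed by 3.23 ± 0.36 (adjusted p = 1.62e-09). Zinc metalloproteinase nas-6 (R038737c0g3_i04) was 48.7, 12.6 and 3.07 CPM in ALP tips at 12 hpa, against 1.7, 1.31 and 2.25 CPM at 3 hpa (3.60 ± 0.42 with library 1 and 2.17 without it). The 3 ALP 12 hpa libraries spread widely in these astacins, with library 1 the highest, yet each lay above all ALP 3 hpa libraries.

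The inhibitor of such enzymes, already counted among the lower members of that list, went the opposite way to the astacins. Metalloproteinase inhibitor 3 (R026013c0g1_i01) was 2.35, 2.39 and 1.69 CPM in ALP tips at 12 hpa, against 11.6, 12.3 and 12.2 CPM at 3 hpa (-2.48 ± 0.22, 5.57-fold lower, adjusted p = 6.60e-13). In DMSO tips it was 4.43, 3.79 and 2.74 CPM at 12 hpa, against 1.44, 1.93 and 2.16 CPM at 3 hpa (1.01, adjusted p = 0.00397). The high group was ALP at 3 hpa alone, and the changes differed by -3.49 ± 0.34 (adjusted p = 5.21e-11).

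Named transcripts with the largest rises were of mixed kinds. A Golgi-associated plant pathogenesis-related protein (R033882c0g1_i01), of a family of secreted cysteine-rich proteins, was 2.3, 5.48 and 6.39 CPM in ALP tips at 12 hpa, against 0 in all 3 ALP 3 hpa libraries (at least 95.7-fold higher by the mean and 46.6-fold by the lowest library, adjusted p = 9.92e-10), and DMSO tips stayed at or below 0.137 CPM. Alpha-crystallin B chain (R028558c0g1_i02), a small heat shock protein, was 4.21, 7.17 and 4.6 CPM, against 0.236, 0.6 and 0.235 CPM (3.92 ± 0.40, adjusted p = 3.82e-11). These rises did not rest on library 1.

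Other large rises were led by library 1. Properdin (R037948c2g3_i01), a complement factor in mammals, was 117.3, 40.6 and 35.5 CPM in ALP tips at 12 hpa, against 3.92, 5.62 and 4.55 CPM at 3 hpa (3.79 ± 0.26, and 3.03 without library 1), with 12.3 to 12.8 CPM in DMSO tips at 12 hpa, against 5.27 to 7.87 CPM at 3 hpa. Hemicentin-1 (R036273c0g2_i01), a matrix protein, was 79.0, 12.5 and 10.3 CPM, against 1.13, 1.31 and 1.69 CPM (4.61 ± 0.46, and 3.04 without library 1). Venom allergen 5.02 (R030356c0g1_i01) was 23.5, 1.08 and 0.869 CPM, against 0.0472, 0.109 and 0.0469 CPM (6.88, and 3.77 without library 1). All 3 were still called without library 1. Beta-porphyranase A (R032532c0g2_i01; 13.0, 5.43 and 4.04 CPM, against 0, 0.218 and 0.141 CPM) and a further Golgi-associated transcript (R038953c0g3_i01; 19.2, 4.83 and 3.73 CPM, against 0.0945, 0 and 0.235 CPM) had the same shape.

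Serine protease HTRA3 (R018818c0g1_i01) and Protocadherin Fat 1 (R034203c1g1_i02) lost their call without library 1. HTRA3 was 6.85, 0.0937 and 0.204 CPM in ALP tips at 12 hpa with 3 counts in all at 3 hpa (adjusted p = 6.11e-05, and 0.441 without library 1), and Fat 1, a large cadherin, was 12.1, 0.609 and 0.613 CPM, against 0.425, 0.327 and 0.0938 CPM (adjusted p = 0.275 without library 1). Of the transcripts with no protein name, R035945c0g1_i01 (11.8, 0.141 and 0.0511 CPM) and R023502c0g1_i01 (8.51, 0.141 and 0.0511 CPM) were likewise carried by library 1 (adjusted p = 0.282 and 0.16 without it), with both at 0 in ALP tips at 3 hpa. The largest unnamed falls held in every library: R007999c0g1_i01 was 0.391, 0.141 and 0.255 CPM in ALP tips at 12 hpa, against 6.09, 4.04 and 4.83 CPM at 3 hpa (-4.23 ± 0.49), and R040937c1g5_i01 was 9.44, 5.01 and 8.48 CPM, against 44.1, 49.9 and 51.3 CPM (-2.67 ± 0.17). Among named falls the largest included a Single insulin-like growth factor-binding domain protein (R013073c0g2_i01; -3.02, and -3.31 in DMSO tips), Sorcin (R026121c1g1_i01; a calcium-binding protein, -1.69) and 3-oxo-5-alpha-steroid 4-dehydrogenase 1 (R002985c0g1_i01; a steroid reductase, -1.57).

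Genes of ribosome assembly and of transcription were called lower more often than higher. In ribosome biogenesis, 1 of 12 members was higher and 7 were lower in ALP tips at 12 hpa (median -0.38). The 66.7% called stood against 23.3% of all transcripts tested. In DMSO tips 1 was higher and 0 lower. The direct test called 7 (58.3%, against 13.3% of all transcripts), all negative. Their summed level was 1071.6 to 1150.9 CPM in ALP tips at 12 hpa and 1377.8 to 1488.6 CPM in ALP tips at 3 hpa, against 1155.7 to 1184.5 CPM in DMSO tips at 12 hpa, 1152.6 to 1172.9 CPM in DMSO tips at 3 hpa and 1045.3 to 1123.2 CPM in DMSO tips at 0 hpa. The ALP 3 hpa libraries were the high ones. Serine/threonine-protein kinase RIO1 (R031282c0g1_i01), which matures the small ribosomal subunit, was 88.5, 79.2 and 87.2 CPM in ALP tips at 12 hpa, against 127.6, 109.2 and 128.5 CPM at 3 hpa (-0.52 ± 0.06, adjusted p = 4.04e-10). U3 small nucleolar RNA-associated protein 4 (R031586c0g1_i01) and WD repeat-containing protein 75 (R034147c0g1_i03), both of the complex that processes the pre-ribosomal RNA, changed by -0.48 and -0.39.

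Of 20 transcripts of RNA polymerase II function and mRNA processing, 1 was higher and 9 lower in ALP tips (median -0.20), against 1 and 0 in DMSO tips. The 50% called in ALP tips stood against 23.3% of all transcripts tested. Cyclin-T2 (R031694c1g1_i01), a subunit of the elongation factor P-TEFb, was 76.4, 64.2 and 74.1 CPM at 12 hpa, against 112.9, 106.4 and 101.8 CPM at 3 hpa (-0.58 ± 0.08, adjusted p = 2.20e-08), and Pinin (R027340c0g1_i01), a splicing-associated protein, changed by -0.39. The exception, Integrator complex subunit 6-A (R038892c1g1_i01), was 66.3, 62.1 and 65.0 CPM, against 30.9, 35.8 and 36.9 CPM (0.90 ± 0.06, adjusted p = 1.35e-16), and rose in DMSO tips also (0.69, adjusted p = 1.69e-12).

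Ribosomal proteins themselves moved little. The cytosolic ones gave 0 higher and 2 lower of 7 in ALP tips (28.6% called, near the 23.3% of all transcripts tested, median -0.14). In DMSO tips they gave 4 higher and 0 lower (57.1%, against 7.84%, median 0.21), with 5 negative differences. 60S ribosomal protein L4-1 (R031973c0g2_i02) was 3126.2, 3268.8 and 3371.7 CPM in ALP tips at 12 hpa, against 3961.8, 3923.4 and 4001.4 CPM at 3 hpa (-0.28), and 3369.4 to 3677.0 CPM in DMSO tips at 12 hpa, against 2902.7 to 3200.6 CPM at 3 hpa. 60S ribosomal protein L5 (R018430c0g1_i01; -0.14) was no longer called without library 1 (adjusted p = 0.0817). Mitochondrial ribosomal proteins gave 0 higher and 3 lower of 8 (37.5% called, against 23.3%). These were L38 (R034072c0g1_i01, -0.56), S18b (R018281c0g1_i01, -0.31) and S29 (R020021c0g1_i01, -0.31), of which L38 alone kept its call without library 1 (adjusted p = 8.75e-07, against 0.011 and 0.0283).

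**Figure D5:**
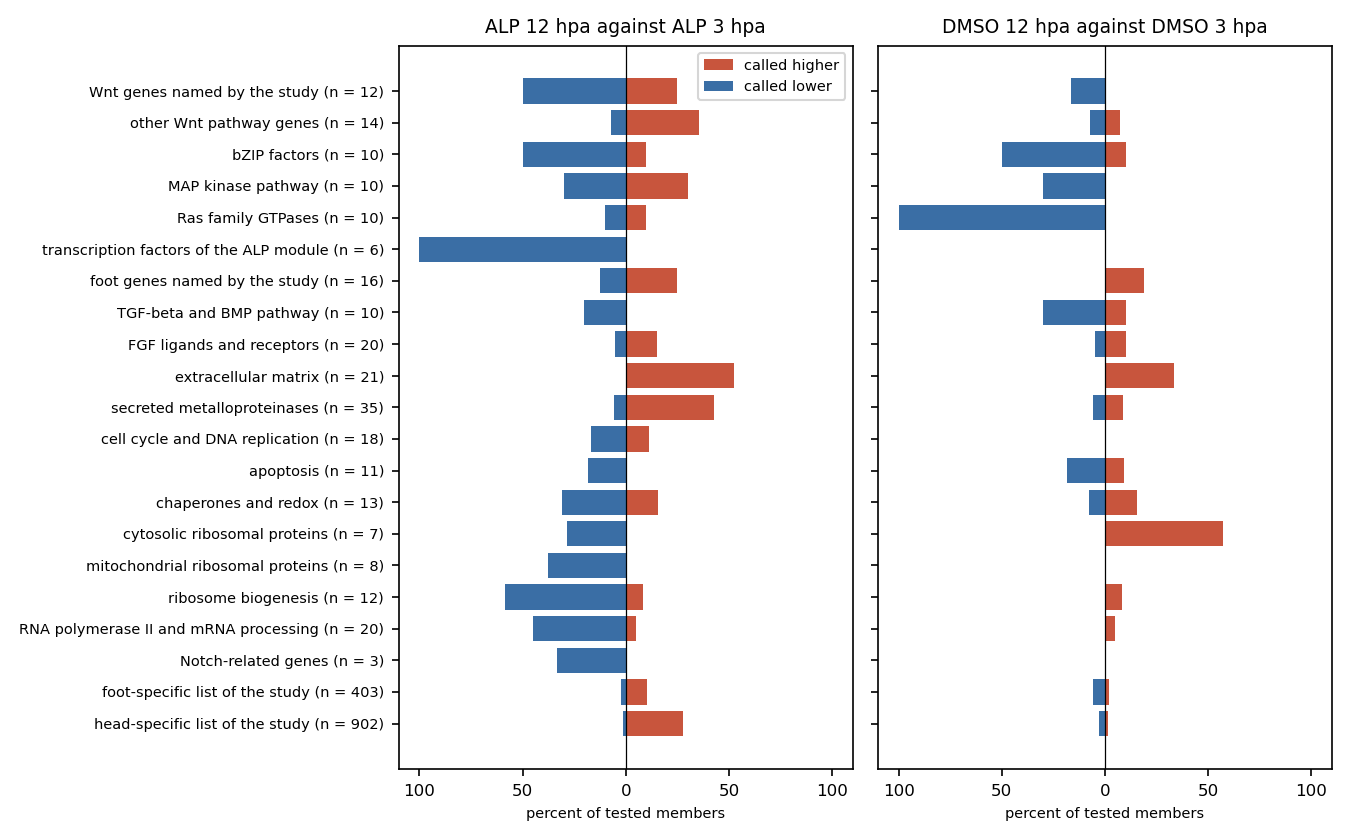
Percent of the tested members of each gene list called higher (red, right of 0) or lower (blue, left of 0) at 12 hpa than at 3 hpa in ALP tips (left panel) and DMSO tips (right panel). Ras family GTPases fall together in DMSO tips but not in ALP tips, while ribosome biogenesis and the ALP module factors fall in ALP tips but not in DMSO tips.

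Cell-cycle and death genes were called at shares near the 23.3% of all transcripts tested. Of 18 cell-cycle and replication transcripts, 2 were higher and 3 lower in ALP tips (27.8% called, median -0.01), against 0 in DMSO tips. Chromatin assembly factor 1 subunit B (R027758c0g1_i02; -0.48) and UHRF1 (R024371c0g1_i01; -0.40), which act on newly replicated DNA, were lower, and a PLK4-type kinase (R031836c0g1_i01; 0.39) was higher. Of 11 apoptosis transcripts 0 were higher and 2 lower (18.2% called). These were the death promoter BAX (R035552c1g1_i02, -0.49, with a difference from DMSO tips of -0.82 ± 0.15) and the survival factor Bcl-2 (R034811c0g2_i01, -0.67, and -0.62 in DMSO tips).

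Chaperones and redox enzymes gave 2 higher and 4 lower of 13 (46.2% called, against 23.3% of all transcripts tested). Without library 1 these were 2 and 2 (30.8%, against 18.2% of all transcripts). Superoxide dismutase (R034762c0g1_i01) was 50.5, 51.6 and 48.5 CPM in ALP tips at 12 hpa, against 24.3, 28.5 and 23.0 CPM at 3 hpa (0.99 ± 0.11). BiP (R041266c0g3_i02), the chaperone of the endoplasmic reticulum, was 1433.3, 1734.2 and 1494.1 CPM, against 978.9, 927.3 and 885.5 CPM (0.74 ± 0.13). BAG6 (R034460c0g1_i03), a chaperone of protein quality control in the cytosol, was 248.3, 239.9 and 244.7 CPM, against 348.1, 316.0 and 332.5 CPM (-0.44).

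Markers of other cell types were read beside these changes. Nerve cell neuropeptides gave 4 higher of 6 in ALP tips at 12 hpa and 0 without library 1. Their summed level was 85.5 to 139.7 CPM in ALP tips at 12 hpa and 70.9 to 94.6 CPM in ALP tips at 3 hpa, against 78.6 to 83.3 CPM in DMSO tips at 12 hpa and 69.2 to 83.0 CPM in DMSO tips at 3 hpa. A Pol-RFamide precursor (R025918c0g1_i01) of the head-specific list was 9.05, 0.328 and 0.102 CPM in ALP tips at 12 hpa and 0 at 3 hpa (at least 64.1-fold higher by the mean but 2.07-fold by the lowest library; adjusted p = 4.58e-05, and 0.031 without library 1), and a pair of others (R035266c0g2_i01, R022142c0g1_i01) were at 5.38, 0.0469 and 0 CPM and at 3.67, 0 and 0 CPM. These calls rest on library 1 alone.

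Gland cell enzymes summed to 864.2 to 940.4 CPM in ALP tips at 12 hpa and 754.4 to 859.4 CPM in ALP tips at 3 hpa, against 796.6 to 952.1 CPM in DMSO tips at 12 hpa and 795.1 to 867.0 CPM in DMSO tips at 3 hpa. Of 6, Chymotrypsin-C (R074105c0g1_i01; 33.3, 28.2 and 25.6 CPM, against 17.0, 17.7 and 14.8 CPM) and Chymotrypsinogen B (R028922c0g1_i01; 5.24, 1.36 and 0.92 CPM, against 0.567, 0.655 and 0.891 CPM) were higher, the second not without library 1 (adjusted p = 0.155). The 2 stem and germ cell markers were not called and summed to 847.5 to 920.4 CPM in ALP tips at 12 hpa and 854.5 to 954.5 CPM in ALP tips at 3 hpa. The part of nerve, gland or head cells in any result above was not tested beyond leaving out library 1.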

How the data were processed

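RNA-seq libraries were made by the study from poly(A) RNA of pooled *H. oligactis* tissue next to the wound, trimmed with Trimmomatic (version 0.39 per the labels), aligned with Bowtie2 to an assembled transcriptome and quantified with RSEM. The authors deposited RSEM's estimated counts for 23396 transcripts in 61 libraries. They were rounded to whole numbers here (5.33% were not whole). An FPKM table was not used, since it has no ALP columns, nor were the authors' own comparison columns. At 3 hpa the column names fixed the group of a library and its number in the column name served only as a name. edgeR 4.0.16 (R 4.3.3) was run on all libraries with TMM normalization, the default expression filter (minimum count 10, minimum total 15), which left 17676 transcripts, and a model of group plus batch (44 residual degrees of freedom). Uninjured foot and head libraries, whose columns do not show their batch, entered with the intermediate batch value 0.4. DESeq2 1.42.0 was an alternative. Others were DESeq2 size factors, no filter, no batch term, an adjusted p of 0.05, a test against a fold of 1.2, other sets of libraries, each library left out, and the replicate number as a block.

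Replicate numbers do not pair the libraries: deviations from the group mean correlated at -0.0229 and 0.038 for the same-numbered ALP libraries at 12 and 3 hpa. Replicates differed by more than sampling noise (chi-square per transcript 2.96 to 8.52), so each counted as 1 sample. Gene names came from the study's supplementary tables. The text names the transcripts the study names in the lists (1 is not reported here), the 12 largest named rises and falls with levels over 1 CPM and groups that do not overlap, the 3 called transcripts of lowest p in each list, the 6 largest differences in each direction, and 2 unnamed rises and falls. The members and the lists were chosen with earlier results of these data known.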

Additional observations from a re-analysis of the deposited data

Results flagged for a closer look

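For 55 of the named transcripts the change between 3 and 12 hpa differed between ALP and DMSO tips by the test of the difference itself (edgeR quasi-likelihood test, adjusted p under 0.01). The values are log2 differences, the ALP change minus the DMSO change. Among Wnt genes these were *wnt3* (6.60), *wntless* (1.47), *sp5* (-2.23), *lgr5* (-1.99), *axin1* (-1.16) and *tcf* (-0.62), and in the ALP module *dmrta2* (-0.47), *rfx1* (-0.42), *aatf* (-0.29) and *ywhaz* (-0.28). Among bZIP factors and kinase signalling genes they were *fos* (2.67), Ras-related protein Rap-1 (1.26), Mitogen-activated protein kinase 6 (1.24), Transcription factor AP-1 (1.01) and *creb* (0.62). Among foot and head genes they were *zic4* (3.45), *dlx2* (3.44), *nk2* (-0.98) and *dlx1* (-0.45). The Putative ascorbate peroxidase (2.70), which is not in the foot-specific list, differed also. Other receptors, ligands and transcription factors were Dopamine receptor 4 (4.19), the Fibroblast growth factor receptor (1.91), Growth/differentiation factor 8 (-2.47), Transcription factor AP-2-beta (-1.81), Homeobox protein vab-15 (-1.65) and Transcription factor HES-2 (-1.15).

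Other named transcripts with positive values were Calpain small subunit 1 (4.50), EGLN1 (4.03), Zinc metalloproteinase nas-6 (3.71), Hemicentin-1 (3.71), Zinc metalloproteinase nas-8 (3.23), Alpha-crystallin B chain (3.21), Properdin (2.84), Chymotrypsinogen B (2.25) and Chymotrypsin-C (1.10). Those with negative values were Metalloproteinase inhibitor 3 (-3.49), Sorcin (-1.36), 3-oxo-5-alpha-steroid 4-dehydrogenase 1 (-0.96), BAX (-0.82), RIO1 (-0.50), 60S ribosomal protein L4-1 (-0.47), WD repeat-containing protein 75 (-0.44), Cyclin-T2 (-0.43), 28S ribosomal protein S18b (-0.43), BAG6 (-0.40), UHRF1 (-0.38), U3 small nucleolar RNA-associated protein 4 (-0.37), 60S ribosomal protein L5 (-0.35), Chromatin assembly factor 1 subunit B (-0.33) and Pinin (-0.31). The unnamed R007999c0g1_i01 (-5.52) and R040937c1g5_i01 (-1.98) completed the set. For Netrin-3 (R035800c0g5_i01), Protein Wnt-4 (R029068c0g1_i01) and Fibroblast growth factor 9 (R018518c0g1_i01), which held at most a single count in ALP tips at 3 hpa, only the adjusted p of the difference is given (1.24e-04, 0.00193 and 6.12e-04). Without ALP 12 hpa library 1, 7 of the 55 called differences among the named transcripts were lost. With each of the 12 libraries left out in turn, the difference lost its call in 9 cases for Chromatin assembly factor 1 subunit B and in 8 each for Sorcin and Transcription factor HES-2.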

How the results depend on the processing

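Counts are given as higher and lower. Against a fold of 1.2, edgeR called 1072 and 404 in ALP tips over time, 139 and 247 in DMSO tips over time, 598 and 168 for the difference of these changes, 47 and 527 for ALP against DMSO tips at 3 hpa, 154 and 74 for the same at 12 hpa, 427 and 157 for DMSO tips at 3 hpa against 0 hpa, and 491 and 250 for ALP tips at 12 hpa against DMSO tips at 0 hpa. At an adjusted p of 0.05 the counts were 1514 and 1213 in DMSO tips over time, 2013 and 2013 for the difference, 1845 and 2005 for ALP against DMSO tips at 3 hpa, 858 and 722 for the same at 12 hpa, 2009 and 1964 for ALP tips at 12 hpa against 0 hpa, and 1600 lower for DMSO tips at 3 hpa against 0 hpa. With only the compared libraries in the fit, 471 were higher in DMSO tips over time, 617 higher in ALP than DMSO tips at 3 hpa, 650 higher at 12 hpa, 518 lower in DMSO tips at 3 hpa against 0 hpa, and 819 and 676 differed between ALP tips at 12 hpa and 0 hpa. The cause of these moves, beyond the threshold or the number of libraries, was not tested. With one library left out in turn, the counts were 1584 to 1925 and 1325 to 1597 in ALP tips over time, 393 to 648 and 395 to 622 in DMSO tips over time (the fewest higher without DMSO 3 hpa library 1; 420 without DMSO 12 hpa library 2 and 518 without DMSO 3 hpa library 4), 915 to 1086 and 777 to 1064 for the difference (the fewest lower without DMSO 3 hpa library 1), 630 to 914 and 777 to 979 for ALP against DMSO tips at 3 hpa (the fewest without ALP 3 hpa library 1; 712 higher without DMSO 3 hpa library 1), 208 to 404 and 135 to 202 at 12 hpa, 783 to 851 and 515 to 723 for DMSO tips at 3 hpa against 0 hpa (569 lower without DMSO 3 hpa library 1 and 515 without library 4), and 946 to 1193 and 731 to 829 for ALP tips at 12 hpa against 0 hpa. The replicate block gave 1630 and 1523 in ALP tips over time, against 1989 and 1810 for the same 12 libraries without it, 490 and 681 in DMSO tips, 1102 and 963 for the difference, 994 and 1142 for ALP against DMSO tips at 3 hpa and 587 and 228 at 12 hpa. Counts under DESeq2, DESeq2 size factors, no filter, no batch term and without the foot and head libraries stayed within 1.5 times. Of 93 named transcripts called in ALP tips, 66 were called under every alternative, 20 lost the call when a library was left out (15 of them without ALP 12 hpa library 1), 8 with the block and 17 against a fold of 1.2; of 55 called differences, 31 were called under every alternative. No named transcript changed direction while called. Depth limits the transcripts with few reads: those with no counts in ALP tips at 3 hpa are given only as a bound.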
